A study of Mus musculus with 6 samples.

Results

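Itga2b, Itgb3, Gp1ba, Gp1bb, Gp5, Gp6, Gp9, Vwf, Pf4 and Ppbp encode the surface glycoproteins by which platelets adhere and aggregate, the ligand von Willebrand factor and a pair of chemokines of platelet granules. These 10 genes, listed by symbol for their known products and chosen with earlier results of these data known, were followed among the 24063 gene symbols of the count files. RNA had been sequenced from LSK cells, the sorted bone marrow fraction without lineage markers and with Sca-1 and c-Kit on its surface, which holds haematopoietic stem cells and early multipotent progenitors. The Asxl2-/- group had 3 libraries from Mx1-cre mice in which Asxl2 had been deleted, and the control group had 3 libraries from Mx1-cre mice labelled wild type. Both groups were C57BL/6 mice, carried the Cre transgene and had been given pIpC, a double-stranded RNA that switches on Cre from the interferon-responsive Mx1 promoter. That promoter is active in many cells besides blood cells, so deletion was not limited to LSK cells. The study's methods call the replicates biological, and ages are not given in the sources used here.

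The totals assigned to genes ran from 25528540 to 29136012 counts in the 3 libraries counted per transcript (Asxl2-/- replicates 1 and 3 and control replicate 2) and from 53147729 to 55032075 in the 3 counted per exon (Asxl2-/- replicate 2 and control replicates 1 and 3), where a read across a splice junction can count more than once. The kind of count was therefore a covariate in the comparison, and levels are directly comparable only within a kind. An order over all 6 libraries mixes the kinds, so the order within each kind is given as well. Summed over its transcript, Asxl2 had a log2 fold change of 0.11 (edgeR adjusted p = 0.469), and exon 11 of its 12 exons held 0.583% of the Asxl2 exon counts in Asxl2-/- replicate 2 against 10.3% and 12% in control replicates 1 and 3. Xist had at least 49540 counts in each Asxl2-/- library and at most 3194 in each control, and 4 Y-linked genes had at most 2 counts in Asxl2-/- libraries and 1026 to 4807 in controls, so genotype and sex cannot be told apart in any value below. The markers used for the sort were present: the c-Kit gene Kit had a log2 fold change of 0.23 (edgeR adjusted p = 0.453), while the Sca-1 gene Ly6a ran from 52.6 to 69.1 CPM (counts scaled to the normalised library size) in Asxl2-/- libraries and from 40.5 to 260 CPM in controls (log2 fold change -1.34, edgeR adjusted p = 0.187).

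Platelets are shed by megakaryocytes, which arise from haematopoietic stem and progenitor cells, in part through stem cells that already carry transcripts of platelet proteins such as Vwf and Itga2b. On platelets, the GPIb-IX-V complex catches von Willebrand factor at a damaged vessel wall, glycoprotein VI binds collagen, and the signals that follow open the integrin αIIbβ3 for fibrinogen. Platelet factor 4 and pro-platelet basic protein are then released from alpha granules. Transcription factors of the GATA, ETS and RUNX families are known regulators of these genes in megakaryocytes.

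Sequence upstream of the transcription start was available from RefSeq (GRCm38.p6, the assembly also called mm10) for 8 of the 10 genes, matched by symbol. Itgb3 and Vwf were not matched. Upstream sequences of 5 genes are printed because they cover the roles described below, an integrin subunit, a pair of GPIb-IX-V subunits and both chemokines. Each line is the 250 bases before the annotated start, 5′ to 3′ on the gene's strand. Capitals mark AGATAA and TGATAA (words bound by GATA factors), AGGAAG (bound by ETS factors) and TGTGGT (bound by RUNX factors) on either strand.
Itga2b: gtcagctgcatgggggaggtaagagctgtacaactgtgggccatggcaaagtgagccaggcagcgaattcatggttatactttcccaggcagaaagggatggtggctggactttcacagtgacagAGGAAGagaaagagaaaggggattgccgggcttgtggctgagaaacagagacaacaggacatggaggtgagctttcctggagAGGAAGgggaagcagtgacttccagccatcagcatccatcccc
Gp1ba: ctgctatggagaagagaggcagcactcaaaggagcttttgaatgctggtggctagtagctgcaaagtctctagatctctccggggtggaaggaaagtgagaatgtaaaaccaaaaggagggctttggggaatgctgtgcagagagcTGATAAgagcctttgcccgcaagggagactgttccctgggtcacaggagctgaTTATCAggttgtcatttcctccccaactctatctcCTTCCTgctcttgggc
Gp5: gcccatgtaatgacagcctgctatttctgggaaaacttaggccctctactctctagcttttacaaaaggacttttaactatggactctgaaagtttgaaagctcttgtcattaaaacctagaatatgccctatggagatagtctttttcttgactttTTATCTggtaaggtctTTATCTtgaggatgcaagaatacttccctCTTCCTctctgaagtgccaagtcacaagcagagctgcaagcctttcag
Pf4: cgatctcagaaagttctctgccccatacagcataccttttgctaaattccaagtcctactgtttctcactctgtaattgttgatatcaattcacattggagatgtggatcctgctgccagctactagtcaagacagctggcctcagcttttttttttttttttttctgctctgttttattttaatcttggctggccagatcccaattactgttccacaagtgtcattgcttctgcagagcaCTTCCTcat
Ppbp: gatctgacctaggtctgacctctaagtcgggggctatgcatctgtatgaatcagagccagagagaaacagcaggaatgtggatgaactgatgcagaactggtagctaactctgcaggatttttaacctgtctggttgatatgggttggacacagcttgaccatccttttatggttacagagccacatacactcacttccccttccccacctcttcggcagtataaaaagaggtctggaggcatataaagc
These windows are chr11:102469884-102470133 (minus strand) for Itga2b, chr11:70638872-70639121 (plus strand) for Gp1ba, chr16:30310782-30311031 (minus strand) for Gp5, chr5:90772185-90772434 (plus strand) for Pf4 and chr5:90768268-90768517 (plus strand) for Ppbp.

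Gp1ba had TGATAA at 104 bases and its reverse complement at 51 bases before the start. Gp5 had the reverse complement of AGATAA at 93 and 77 bases before its start. Gp6, not printed, had AGATAA at 144 bases. One of these GATA words was thus present in 3 of 8 windows, against 16.6% of 32851 mouse windows of the same length (AGATAA in 9.99% and TGATAA in 7.94%). AGGAAG or its reverse complement was present in 5 of 8, against 29.5% of all windows. These sites were in Itga2b at 125 and 43 bases, Gp1ba at 16, Gp5 at 48, Gp9 at 16 and Pf4 at 9. TGTGGT was present in 1 of 8, as its reverse complement in Gp9 at 171 bases, against 14.0% of all windows. The Gp9 window (chr6:87777820-87778069) does not adjoin the Gp9 transcript counted below, which begins at chr6:87778136. Its distances are from another annotated start. None of the 4 words was found in the windows of Gp1bb and Ppbp. These are matches of letters, and no binding was measured.

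Of the 10 genes, 9 had enough counts to be tested and Gp6 did not. Ppbp reached the filter's level of 0.243 CPM in 3 of 3 Asxl2-/- libraries and 2 of 3 controls, and the other 8 reached it in every library. Transcripts of Vwf, Pf4, Ppbp and Gp5 were higher in Asxl2-/- LSK cells at an adjusted p below 0.05, that is 4 of 9 tested genes raised, and no gene of the 9 was lowered. Among all 14145 genes tested, 2.04% were raised and 0.304% lowered by the same test (2.34% in either direction). All 9 log2 fold changes were above 0, as were 50.1% of those of all genes tested. They had a median of 1.15 and ran from 0.41 to 2.72, and the median over all tested genes was 0.001. At an unadjusted p below 0.05, 8 of 9 were raised, against 15% of all genes tested, and the exception was Itgb3. In these bulk libraries, a larger share of cells that carry a transcript and more transcript in each such cell cannot be told apart.

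**Figure D1:**
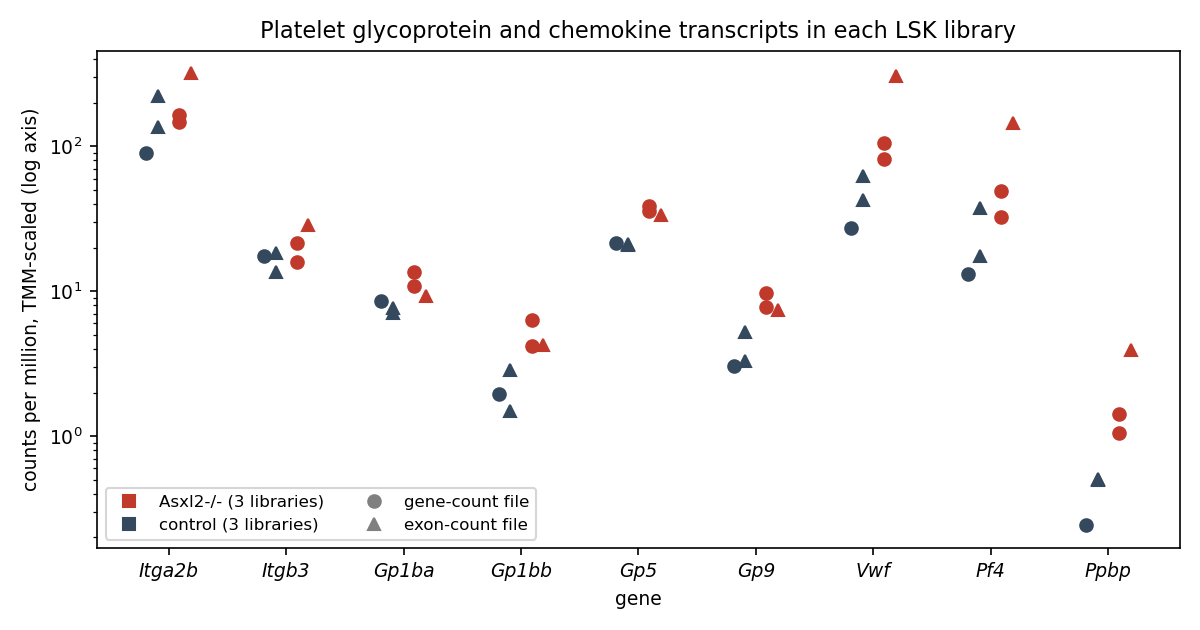
Level of each tested gene in each library, in CPM on a log axis, with Asxl2-/- and control libraries set side by side and the marker shape giving the kind of count. Vwf lies between 81.8 and 306 CPM in Asxl2-/- libraries and between 27.2 and 62.1 CPM in controls, while the groups of Itga2b, Itgb3 and Pf4 overlap.

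The GPIb-IX-V complex has its binding site for von Willebrand factor on GPIbα, the product of Gp1ba (chr11:70639122-70642055). Gp1ba was at 10.9, 9.21 and 13.6 CPM in Asxl2-/- replicates 1 to 3 and at 7.68, 8.61 and 7.13 CPM in control replicates 1 to 3. Every Asxl2-/- library lay above every control, but the gap was small, and the log2 fold change of 0.41 ± 0.16 (SE, 3 libraries per group) did not pass the threshold (edgeR adjusted p = 0.167, 95% interval 0.02 to 0.8). Gp5 (chr16:30307685-30310781), the glycoprotein V subunit that thrombin cleaves, was at 35.6, 33.7 and 39.0 CPM in Asxl2-/- replicates and at 21.0, 21.7 and 21.2 CPM in controls. The groups were well apart and the libraries within each close together, the group SDs being 0.074 and 0.03 on the log2 CPM scale. Gp5 was 1.65-fold higher in Asxl2-/- cells (log2 fold change 0.72 ± 0.0971, edgeR adjusted p = 0.0281), so that the smallest rise to pass the threshold among the 9 genes rested on the narrowest spread.

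Gp9 (chr6:87778136-87779762) encodes glycoprotein IX, which the complex needs to reach the surface. It was at 9.69, 7.46 and 7.83 CPM in Asxl2-/- replicates and at 5.22, 3.06 and 3.29 CPM in controls. Every Asxl2-/- library was again above every control, and the fold of 2.22 exceeded that of Gp5, but the controls were more spread and the edgeR adjusted p was 0.0841 (log2 fold change 1.15 ± 0.289, SE).

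Gp1bb (chr16:18620319-18622403) encodes GPIbβ, the chain joined to GPIbα by a disulfide bond. It was at 6.35, 4.25 and 4.2 CPM in Asxl2-/- replicates and at 2.88, 1.95 and 1.5 CPM in controls, with no overlap between groups (log2 fold change 1.19 ± 0.357, edgeR adjusted p = 0.109). Its transcript shares 593 of 2085 exonic bases with the neighbouring septin gene Sept5 , and reads there cannot be assigned to either gene. Sept5 itself was raised, with a log2 fold change of 2.19 ± 0.322 (edgeR adjusted p = 0.0336). The tested transcript has 1 exon, but another annotated Gp1bb transcript has an exon free of shared bases (chr16:18620319-18621332). In the exon-count libraries that exon held 190 counts in Asxl2-/- replicate 2 and 136 and 55 in control replicates 1 and 3. These are 3.57 CPM against 2.61 and 1.16 CPM. The difference for Gp1bb was thus also seen in the 1 Asxl2-/- library where the shared bases could be set aside.

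The integrin αIIbβ3 is the platelet receptor for fibrinogen, and its α chain Itga2b (chr11:102453297-102469883), known to flow cytometrists as CD41, is an early marker of megakaryocyte progenitors. Itga2b stood at 165, 319 and 148 CPM in Asxl2-/- replicates and at 222, 90.5 and 135 CPM in controls. The groups overlapped only across the kinds of count, since Asxl2-/- replicates 1 and 3 lay above control replicate 2, and Asxl2-/- replicate 2 lay above control replicates 1 and 3. With the kind of count in the model, Itga2b was 1.76-fold higher (log2 fold change 0.81 ± 0.195, edgeR adjusted p = 0.0779).

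Itgb3 (chr11:104608000-104670471), the β chain, was at 21.4, 28.7 and 16 CPM in Asxl2-/- replicates and at 18.5, 17.4 and 13.6 CPM in controls. It was the only tested gene of the 9 whose Asxl2-/- libraries were not all above the controls within both kinds of count, with Asxl2-/- replicate 3 below control replicate 2 among the gene-count libraries. Its log2 fold change was 0.48 ± 0.225 (edgeR adjusted p = 0.223, 95% interval -0.07 to 1.03), so neither no change nor a doubling was outside the interval. The β3 chain also pairs with αv, and Itgav had a log2 fold change of 0.38 (edgeR adjusted p = 0.167).

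Gp6 (chr7:4368713-4397744), the collagen receptor that signals through the Fc receptor γ chain and is made late in the megakaryocyte lineage, was almost undetected. It had 2 counts in Asxl2-/- replicate 2, 2 counts in control replicate 2 and 0 in the other 4 libraries, where 3 counts would have been 0.0576 to 0.106 CPM. No comparison of Gp6 was possible at this depth.

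Vwf (chr6:125552948-125686679), the multimeric ligand of GPIbα and one of the transcripts of platelet-biased stem cells, also made by endothelial cells, gave the smallest adjusted p of the 9 genes. Its level was 106, 306 and 81.8 CPM in Asxl2-/- replicates and 62.1, 27.2 and 42.8 CPM in controls. All Asxl2-/- libraries were above all controls, and the difference was present within each kind of count, with log2 fold changes of 1.77 between gene-count libraries and 2.57 between exon-count libraries. Vwf was 4.51-fold higher in Asxl2-/- cells (log2 fold change 2.17 ± 0.234, SE, edgeR adjusted p = 0.019, 95% interval 1.6 to 2.74).

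Pf4 (chr5:90772435-90773383), the heparin-binding chemokine platelet factor 4 (CXCL4), was at 49.1, 146 and 32.4 CPM in Asxl2-/- replicates and at 37.7, 13.2 and 17.5 CPM in controls. Asxl2-/- replicate 3 lay below control replicate 1, so the groups overlapped, but these libraries are of different kinds, and within a kind the groups did not overlap. Pf4 was 4.10-fold higher (log2 fold change 2.03 ± 0.354, edgeR adjusted p = 0.0496), just inside the threshold, and at 0.0504 with median-ratio scaling it was just outside.

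Ppbp (chr5:90768518-90770060), the precursor of β-thromboglobulin, lies next to Pf4 in the CXC chemokine cluster of chromosome 5. It was scarce, counted 40, 210 and 30 times in the Asxl2-/- libraries and 26, 7 and 24 times in the controls, that is 1.42, 3.95 and 1.06 CPM against 0.499, 0.243 and 0.506 CPM. Even the lowest Asxl2-/- library was above every control, and Ppbp had the largest fold of the 9 genes at 6.58 (log2 fold change 2.72 ± 0.328, edgeR adjusted p = 0.0228). Of the other 5 CXC genes of this cluster listed, 1 was tested, Cxcl2, with a log2 fold change of 0.62 (edgeR adjusted p = 0.706). Cxcl1 had no count in any library. Cxcl5, singled out after its values were seen, was counted 10, 58 and 0 times in the Asxl2-/- libraries and 0, 0 and 1 times in the controls.

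**Figure D2:**
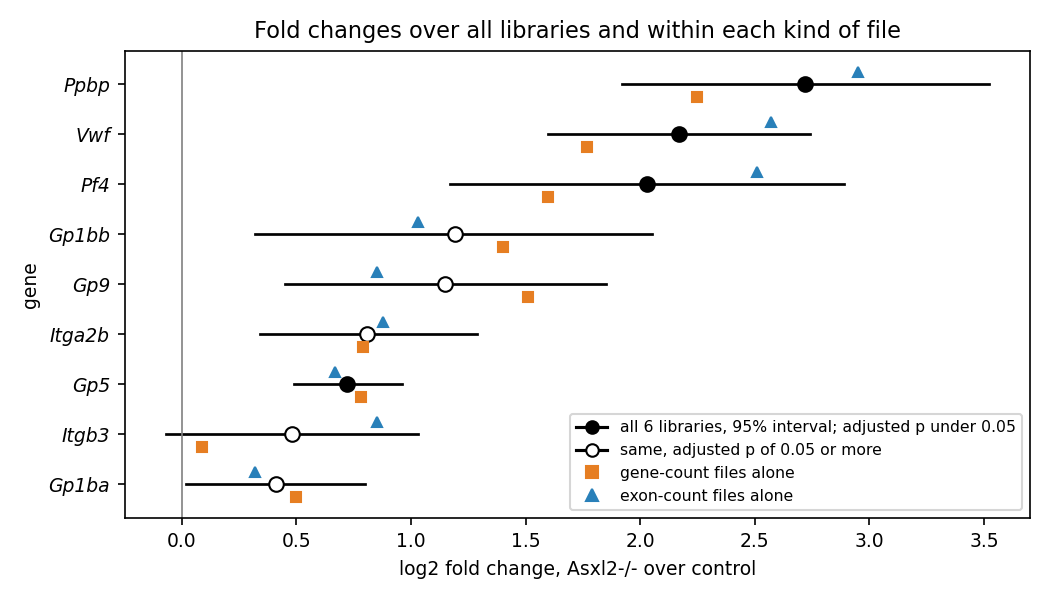
Log2 fold change of each tested gene, Asxl2-/- over control, from the model with the kind of count, with 95% intervals, and beside it the same difference within gene-count and within exon-count libraries alone, which carry no test. All 9 estimates are above 0, from 0.41 for Gp1ba to 2.72 for Ppbp, and the interval of Itgb3 alone reaches below 0.

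Every Asxl2-/- library exceeded every control for 6 of the 9 genes (Gp1ba, Gp1bb, Gp5, Gp9, Vwf and Ppbp), an order found in 15.4% of all tested genes. That order includes pairs of libraries of different kinds. Within both kinds of count, 8 of 9 had this order, against 25.4% of all tested genes, and for 5 of 9 it came with a log2 fold change of at least 1, against 6.62%. The 3 transcripts with the largest changes, Vwf, Pf4 and Ppbp, encode secreted proteins, while the 6 membrane glycoproteins tested ran from 0.41 to 1.19 on the log2 scale. Differences in fold between genes were not tested. The calls depended on single libraries. At the same threshold 0 of the 9 genes passed without Asxl2-/- replicate 1 or without control replicate 3, 1 without Asxl2-/- replicate 3, 2 without Asxl2-/- replicate 2 or control replicate 2, and 7 without control replicate 1, while 7 or 8 had an unadjusted p below 0.05 in each case and no fold change turned negative.

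Expressed per kilobase of transcript, which allows genes to be compared within the gene-count libraries, Pf4 and Itga2b were the most abundant, at 83.6 and 55.2 CPM per kb for Pf4 and 47.9 and 43.2 for Itga2b in Asxl2-/- replicates 1 and 3. In control replicate 2 the order was reversed, with 26.3 CPM per kb for Itga2b and 22.4 for Pf4. Gp5 followed, with 16.2 and 17.7 CPM per kb against 9.89. Gp9 stood at 11.9 and 9.65 against 3.77 CPM per kb and Vwf at 11.9 and 9.26 against 3.08. These neighbours were close in the gene-count libraries, and the difference between them was not tested. Gp1ba (3.99 and 4.97 against 3.16), Itgb3 (3.70 and 2.78 against 3.01) and Gp1bb (3.05 and 2.01 against 0.933) came next in the Asxl2-/- libraries, where the ranges of Itgb3 and Gp1bb overlapped, while in control replicate 2 Gp1ba lay above Vwf. Ppbp stood at 1.31 and 0.979 against 0.225 CPM per kb, and Gp6 at 0, 0 and 0.0603. The subunits of one receptor complex thus differed in transcript level, Gp5 being above Gp9, Gp1ba and Gp1bb in all 3 libraries.

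**Figure D3:**
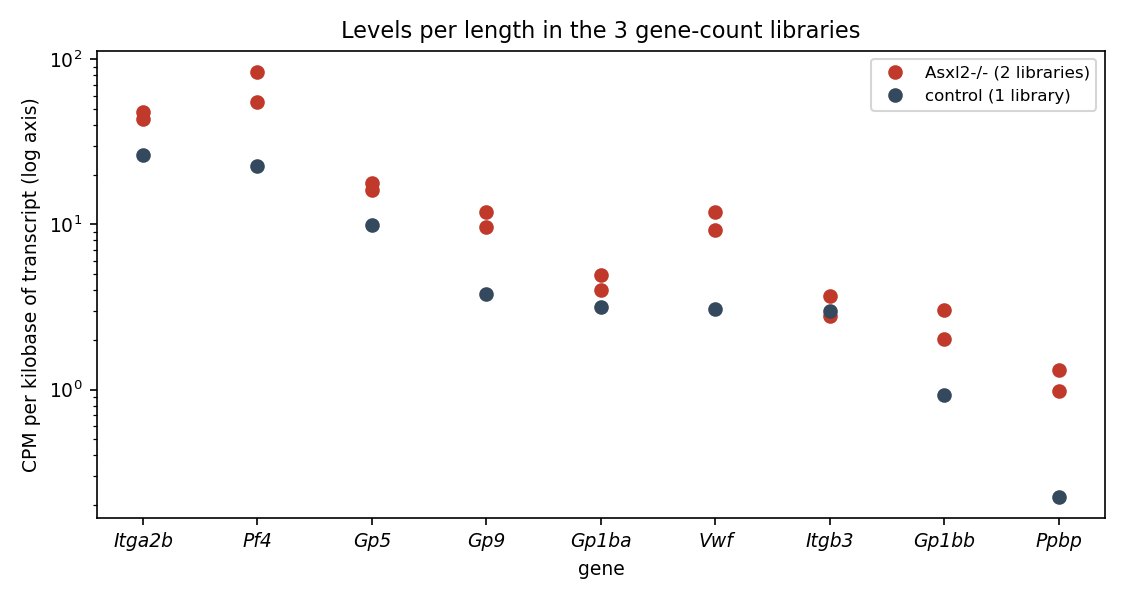
Level of each gene per kilobase of transcript in the 3 gene-count libraries, on a log axis in CPM per kb. Pf4 is first in Asxl2-/- replicates 1 and 3, at 83.6 and 55.2, and Itga2b is first in control replicate 2, at 26.3.

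The exon-count libraries showed whether a difference ran along the whole transcript. Vwf was higher in Asxl2-/- replicate 2 than in control replicates 1 and 3 in 52 of 52 exons, with ratios of 3.72 to 6.88 (median 5.04) over control replicate 1 and 5.01 to 11.7 (median 7.35) over control replicate 3. Itga2b was higher in 30 of 30 exons, with medians of 1.43 and 2.35, and Itgb3 in 15 of 15, with medians of 1.55 and 2.07. The difference was therefore not limited to a stretch of any of these long transcripts. The 3 exons of Pf4 gave ratios of 3.78 to 3.95 and 8.31 to 8.44, and the 3 of Ppbp gave 6.72 to 8.49 and 5.17 to 10.7. Exons of a transcript share a library and its reads, so with 1 Asxl2-/- library of this kind these are descriptions without a test.

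**Figure D4:**
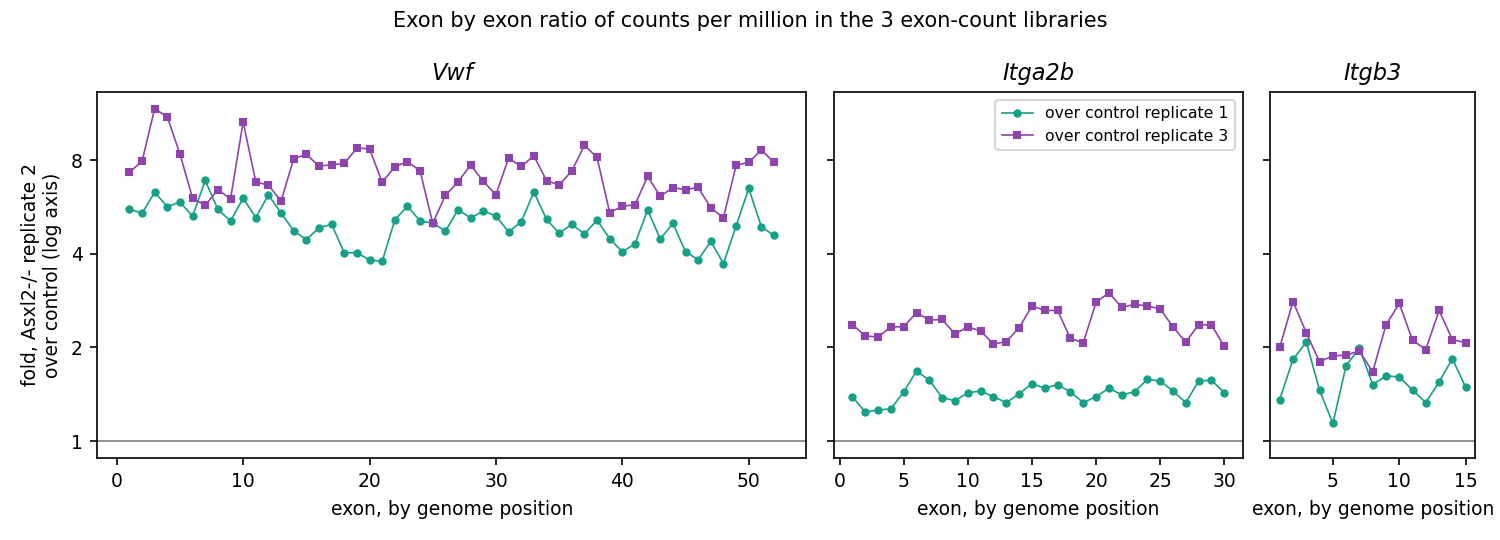
Ratio of Asxl2-/- replicate 2 to control replicates 1 and 3, exon by exon in order of genome position, on a log axis with a line at equal level. Itga2b lies on the minus strand, so its exons are shown from the last to the first. All exons of Vwf lie between 3.72 and 11.7, above those of Itga2b, which lie between 1.24 and 3.

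The tested genes varied together over the 6 libraries. After the effect of the kind of count was removed, the log2 CPM of each correlated with the mean of all 9 at r from 0.822 (Itgb3) and 0.827 (Gp1ba) to 0.993 (Vwf), each gene being part of that mean. The closest pair was Vwf and Ppbp (r = 0.989) and the least alike were Itgb3 and Gp1ba (r = 0.422). The libraries form groups that differ in these genes, so the values mostly restate the difference between groups and carry no p. Outside the 10 genes, the 5 profiles most like their mean, of 11501 with a mean log2 CPM of at least 1, were those of Fam117a, Dsel, Thy1, Ctps2 and Anxa4, with r from 0.99942 to 0.99997, and 1482 profiles had r above 0.9.

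Other platelet and megakaryocyte genes, 78 in 4 lists without the 10 genes, were read beside them. Of 76 tested, 7 were raised and 0 lowered, against 2.04% and 0.304% of all genes tested. A fold change above 0 was found in 60, against 50.1% of all genes, and the median log2 fold change was 0.50. The same shares of all genes apply to each list below. Among 21 tested receptors and adhesion proteins, 4 were raised. Selp, the P-selectin that platelets bring to their surface on activation, was at 105, 94.3 and 102 CPM in Asxl2-/- replicates and 58.5, 41.5 and 48.2 CPM in controls (log2 fold change 1.07 ± 0.147, edgeR adjusted p = 0.0308). Itga6, the α6 chain of a laminin receptor (0.76, edgeR adjusted p = 0.0319), and F11r, a junctional adhesion molecule (1.66, edgeR adjusted p = 0.0401), were also among them. Selp, Itga6 and F11r are all found on cells other than platelets as well. In the same list the thrombospondin receptor Cd36 stood at -1.05 (edgeR adjusted p = 0.126) and Cd226 at -1.68 (edgeR adjusted p = 0.107), both named after their values were seen.

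No gene of 13 tested for granule cargo and granule formation, a list that includes intracellular trafficking proteins, passed the threshold. At an unadjusted p below 0.05, 6 were raised, against 15% of all genes tested. The first genes of that list were Thbs1 at a log2 fold change of 1.58 (edgeR adjusted p = 0.0679), the coagulation factor genes F5 at 0.91 (edgeR adjusted p = 0.156) and F13a1 at -0.40 (edgeR adjusted p = 0.696). Of 22 tested signalling and cytoskeletal genes, 1 was raised, Rgs18, a regulator of G-protein signals in platelets (0.71 ± 0.11, edgeR adjusted p = 0.039). Of 20 tested transcriptional and other regulators, 2 were raised, among them Ets1 (1.09 ± 0.189, edgeR adjusted p = 0.049). At an unadjusted p below 0.05, 9 of the 20 were raised and 2 lowered, against 15% and 12.6% of all genes tested. The first genes of that list did not pass. Their log2 fold changes were -0.54 for Gata1 (edgeR adjusted p = 0.171), 0.51 for Gata2 (edgeR adjusted p = 0.172) and 0.50 for Fli1 (edgeR adjusted p = 0.105). Next in the list were Runx1 at 0.30 (edgeR adjusted p = 0.103) and Nfe2 at 0.53 (edgeR adjusted p = 0.0583). Of the other integrin chains, 21 were tested with a median of 0.01, and Itga6 alone passed.

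**Figure D5:**
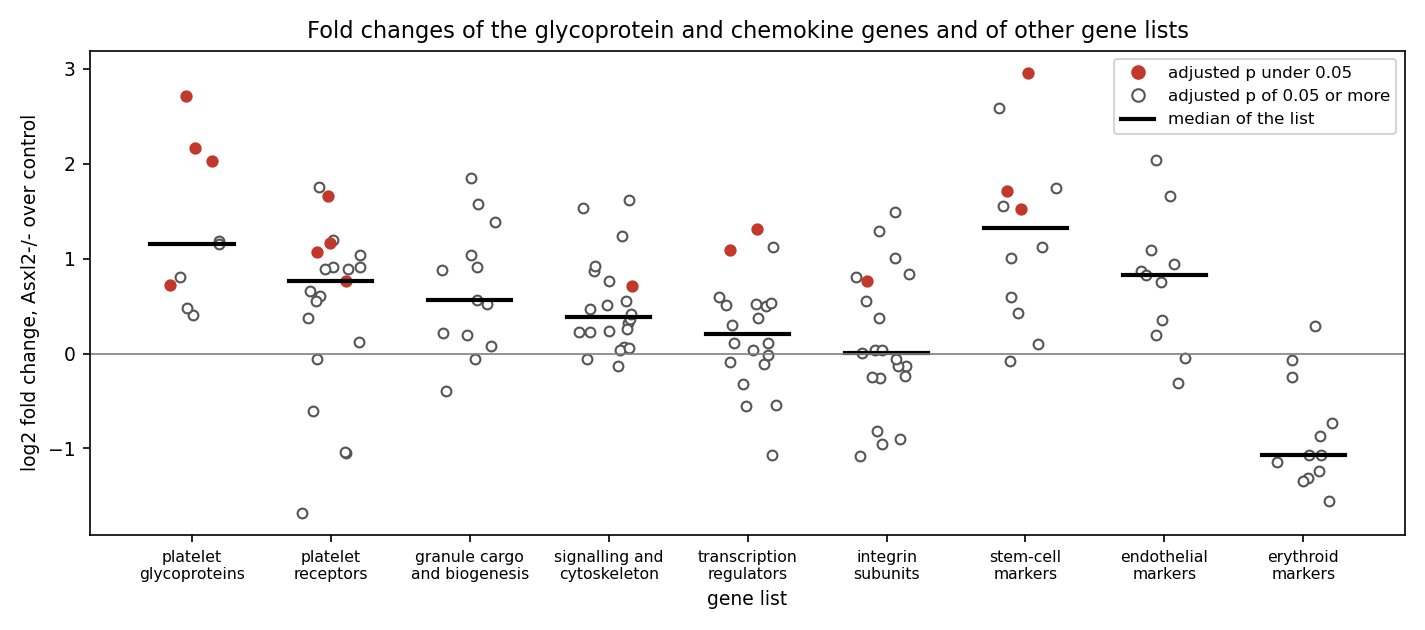
Log2 fold change of every tested gene in each list, Asxl2-/- over control, with the list median as a line and genes past the adjusted threshold filled. The 9 glycoprotein and chemokine genes have a median of 1.15 and the other platelet lists medians between 0.20 and 0.76. The median is 1.32 for the stem cell markers, 0.83 for the endothelial markers, 0.01 for the integrin chains and -1.07 for the erythroid list.

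Markers of other cells were read beside these values. Endothelial cells also make Vwf, and of 11 tested endothelial markers 0 passed in edgeR. At an unadjusted p below 0.05, 5 were raised, against 15% of all genes tested. The summed levels of the list were 350 to 435 CPM in Asxl2-/- libraries and 286 to 408 CPM in controls. The median log2 fold change of the list was 0.83 and 9 of 11 were above 0, against 50.1% of all genes tested. The first 3 of that list were Cdh5 at 0.353 to 0.958 CPM in Asxl2-/- libraries and 0.127 to 0.461 CPM in controls, Kdr at 0.423 to 1.14 against 0.38 to 1.15 CPM and Tek at 10.5 to 15.9 against 6.29 to 11.9 CPM. Robo4 had the highest fold change of the list, 2.04 on the log2 scale (edgeR adjusted p = 0.0841), a gene named after its values were seen. The part of endothelial transcripts in the higher Vwf was not tested. Of 12 tested stem cell markers, 3 were raised, against 2.04% of all genes tested, and 9 did not pass. Those raised were Slamf1, Ctnnal1 and Cdkn1c, with log2 fold changes of 1.52, 1.71 and 2.96. The summed level of the list was 336 to 382 CPM in Asxl2-/- libraries and 148 to 250 CPM in controls. The median log2 fold change of the stem cell list was 1.32, above the 1.15 of the 9 genes. In that list 11 of 12 were above 0, against 50.1% of all genes tested. B-lymphoid markers were also raised, 8 of 10 tested, against 2.04% of all genes tested. They were led by Cd79a at a log2 fold change of 1.84 (edgeR adjusted p = 0.0178). The sums of the list were 191 to 236 CPM in Asxl2-/- libraries and 45.9 to 67.1 CPM in controls. The median log2 fold change of the B-lymphoid list was 1.91. Of 11 tested neutrophil and monocyte markers 2 were raised, Ngp and Ltf, against 2.04% of all genes tested. At an unadjusted p below 0.05, 4 were raised, against 15% of all genes tested. The sums, of which Mpo made up the most, overlapped at 2490 to 6650 CPM against 2560 to 8020 CPM. Erythroid markers ran the other way, their sums being 1550 to 2890 CPM against 3340 to 5560 CPM, with 0 of 12 past the threshold and 8 lower at an unadjusted p below 0.05, against 12.6% of all genes tested. Mast cell and basophil sums (143 to 354 CPM against 222 to 355 CPM, 0 of 8 past in edgeR and 0 at an unadjusted p below 0.05) and T and NK cell sums (124 to 177 CPM against 136 to 166 CPM, 0 of 8 past in edgeR and 1 at an unadjusted p below 0.05) overlapped between groups. Whether a different mix of stem, lymphoid and erythroid-primed cells within the gate took part in the higher glycoprotein and chemokine transcripts was not tested.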

How the data were processed

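The values deposited were raw counts of reads on the mm10 build, for RefSeq transcripts, from poly(A)-selected, unstranded libraries. The authors gave 1 count per transcript in 3 libraries (33068 lines) and 1 count per exon in the other 3 (317548 lines). The submitters' processing notes name STAR, featureCounts and DESeq2, without versions, and the study's methods name Cuffdiff. Each symbol was represented by its longest transcript (4914 of 24063 symbols had several), and exon counts were summed. Libraries were grouped by the genotype label. Counts were tested on all genes past filterByExpr (14145) by edgeR 4.0.16 (R 4.3.3, quasi-likelihood F test after TMM scaling) in a model of genotype and file kind with 3 residual degrees of freedom, two-sided, with Benjamini-Hochberg adjustment and a threshold of 0.05. CPM used TMM-scaled library sizes, and group SDs are of log2 CPM after removal of the file kind effect. A floor of 3 counts covers counting error only, and reads amplified by PCR without molecular identifiers are not independent molecules. P-values set the difference between groups against the spread of these libraries within groups, estimated with information shared across genes. They do not separate genotype from sex.

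The 10 genes and all lists were chosen with earlier results of these data known. Named by rule were the 10 genes, up to 4 genes per list past the threshold with the smallest p, or otherwise its first 3 genes, genes that share exon bases with 1 of the 10, the 5 most similar profiles and the label checks. Alternatives were median-ratio scaling, library size only, DESeq2 1.42.0, limma-voom (limma 3.58.1), a minimum of 10 counts per library, omission of the filter or of file kind, a replicate block with and without file kind, the transcript with the highest count, the longest exon, each file kind alone, and each library left out. Of the genes named by rule, 2 are not reported here, though they stay in the counts of their lists.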

Additional observations from a re-analysis of the deposited data

How the results depend on the processing

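Under 17 tested alternatives for each gene (16 for Ppbp) and within each file kind, no fold change of the 9 genes turned negative. Log2 fold changes ran from 1.68 to 2.54 for Vwf, 1.52 to 2.40 for Pf4, 2.09 to 2.97 for Ppbp, 0.66 to 0.82 for Gp5, 0.49 to 0.98 for Itga2b and 0.11 to 0.83 for Itgb3. These ranges leave out each file kind alone, which carries no test and gave 1.77 (gene-count files) and 2.57 (exon-count files) for Vwf, 1.60 and 2.51 for Pf4 and 0.09 and 0.85 for Itgb3. Vwf passed the threshold in 13 of 17 alternatives, Gp5 in 12 of 17, Ppbp in 10 of 16 and Pf4 in 7 of 17, while Itga2b, Gp1bb and Gp9 passed in 3 each. The number past the threshold, 4 of the 9 genes, was 7 with DESeq2, 1 without the file kind in the model, and 0 to 7 when single libraries were left out. The count over all genes, 331, was 161 with library size only, 2329 with DESeq2 and 9 to 1312 when single libraries were left out. Of the 76 other platelet genes, 7 passed, against 2 with library size only, 33 with DESeq2, 11 with limma-voom and 0 to 22 when single libraries were left out. The cause of these shifts was not tested.

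Replicate numbers were shared between the groups. Same-numbered libraries deviated from their group means with correlations of 0.309, 0.0406 and 0.00664, and 3 of 6 libraries correlated best with their own number. Same-numbered libraries were always of different kinds of count, and the effect of the kind was left in these values. The correlations therefore cannot tell whether the numbers mark pairs, and the main model does not use the numbers. With the replicate block and file kind, which leaves 1 residual degree of freedom, 9 of the 9 genes, 5179 of all genes and 55 of the other platelet genes passed. With the replicate block and without file kind, 0 of the 9 genes passed in edgeR (6 at an unadjusted p below 0.05).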
